A study of Mus musculus with 3 samples.

Results

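Mammalian HOX gene clusters, which encode the transcription factors that set position along the body axis, also encode the microRNAs (miRNAs) miR-10, miR-196 and miR-615. A miRNA precursor folds into a hairpin, and either of its arms, named 5p and 3p, can be cut out as the mature miRNA. The mature strand pairs with messenger RNAs mainly through its seed, bases 2 to 8 counted from its 5′ end, and miR-196 is known for pairing with the transcript of Hoxb8, miR-10 for pairing with that of Hoxd10. The small RNAs of extracellular vesicles (EVs), membrane-bound particles that cells release, were sequenced in 3 libraries from the testes of C57/BL6 mice at postnatal day 7 (PND7). Each library came from EVs pooled from 10 mice and treated with proteinase K, PMSF and RNase A before RNA extraction. The sample titles add the word treated after naming the PND7 testis EVs, and do not say if these were treated or were the agent. The protocol in the labels names no other treatment. All libraries belong to that condition, so no comparison with another was possible, and since the EVs came from whole decapsulated testes, more EVs from a cell type and more miRNA per EV cannot be told apart.

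The HOX-embedded miRNAs were chosen by name, with earlier results of these data known. Every mature or hairpin entry of the deposited catalogues for miR-10a, miR-10b, miR-196a, miR-196b and miR-615 was taken, with no minimum count. Of 805 miRNA identifiers counted in any library, 9 met this rule. Replicates 1, 2 and 3 held 8, 7 and 6 of these 9, against 625, 611 and 621 of all 805. The 805 include miRNAs predicted by the authors, which were left out only where arms were compared. RefSeq names 11 mature miRNAs of the chosen precursors, and the miR-196a-2-3p and miR-196b-3p identifiers had no count in any library. Clean reads numbered 25716952 to 27939308 per library, of which 870967 to 1005836 were counted on mature entries and 493345 to 612122 on hairpin entries. What a hairpin entry counts is not given in the sources used here. These entries carry the names of mature arms, so they are given beside the mature entries and not as a measure of unprocessed precursor.

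The mature sequences of the counted 5p arms show how near the paralogs are to each other, with the seed in capitals (RefSeq, GRCm38.p6).
miR-10a-5p: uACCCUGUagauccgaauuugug
miR-10b-5p: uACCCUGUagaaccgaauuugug
miR-196a-5p: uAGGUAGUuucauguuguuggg
miR-196b-5p: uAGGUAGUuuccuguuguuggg
Within each pair the seed was shared and 1 base differed, U12A from miR-10a-5p to miR-10b-5p and A12C from miR-196a-5p to miR-196b-5p, with positions counted from 1 at the 5′ end. No other mature mouse miRNA in the RefSeq table had the seed of either pair. The mismatches allowed by the authors in mapping are not given in the sources used here, so reads of these pairs could have been split between their entries. The arms of Mir615 and the 3p arm of Mir196a-1 carry other seeds.
miR-615-3p: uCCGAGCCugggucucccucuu
miR-615-5p: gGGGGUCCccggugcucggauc
miR-196a-1-3p: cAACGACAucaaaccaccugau
Relatives outside the HOX clusters are shown because their levels are set beside those of the HOX-embedded miRNAs.
miR-99a-5p: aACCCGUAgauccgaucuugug
miR-100-5p: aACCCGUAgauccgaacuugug
let-7c-5p: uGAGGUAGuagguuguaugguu
Shifted by 1 base, miR-10a-5p shared 18 of 22 bases with miR-99a-5p and 19 of 22 with miR-100-5p, but its seed did not occur in them. The seed of miR-196a-5p occurs in let-7c-5p from base 3 on, 1 base further in than in miR-196a-5p itself, and with that shift 10 of 21 bases were shared.

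Mir10a lies in the HoxB cluster at chr11:96317165-96317274 on the plus strand, 992 bases before Hoxb4 and 11043 bases after Hoxb5, outside annotated genes (GENCODE vM21, GRCm38). Mir10b lies in the HoxD cluster at chr2:74726070-74726137 on the plus strand, in introns of Hoxd3 and Hoxd4. Mir196b lies in the HoxA cluster at chr6:52230081-52230165 on the minus strand, where it overlaps an exon of Hoxa9. Mir615 lies in the HoxC cluster at chr15:103014910-103015001 on the plus strand, in an intron of Hoxc5. Mature miR-196a-5p has a pair of source genes, Mir196a-1 at chr11:96265164-96265265, 6191 bases before Hoxb9 in the HoxB cluster and outside annotated genes, and Mir196a-2 at chr15:102973350-102973434, in the HoxC cluster between Hoxc10 and Hoxc9 and in an intron of a Hoxc5 gene model that reaches past Hoxc9. The map of the clusters shows that each miR-196 gene lies beside or within a HOX gene of group 9, whereas Mir10a and Mir10b lie beside or within those of group 4.

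**Figure D1:**
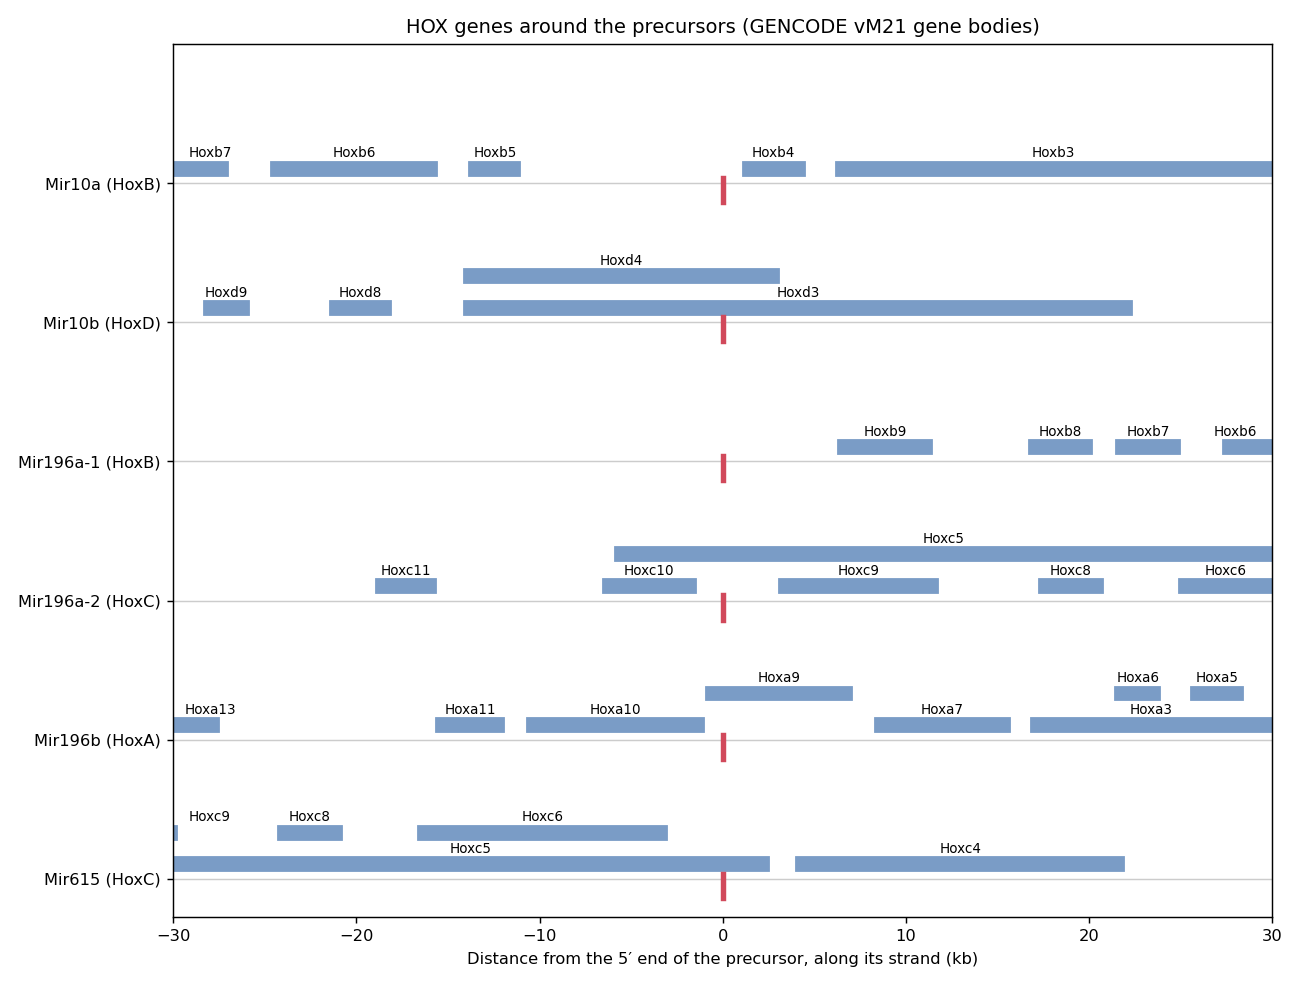
Position of annotated HOX genes (blue bars, GENCODE vM21 gene bodies) relative to the 5′ end of each miRNA precursor (red mark), in kb along the strand of the precursor and clipped at the edges of the plot. Mir10a, Mir196a-1 and Mir196a-2 sit between HOX genes or within a long gene model, and Mir10b, Mir196b and Mir615 sit within HOX genes.

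miR-196a-5p was the most abundant of the HOX-embedded miRNAs in every library. The mature entry of mmu-miR-196a-5p held 6191, 11034 and 9966 counts in replicates 1, 2 and 3, which is 7108, 10970 and 10312 CPM, counts scaled to a mature miRNA total of 1000000 in each library. The mean was 9463 ± 2066 CPM (SD, n = 3), rank 21 among 604 mature miRNAs with a count, and replicate 1 was the lowest. The exact binomial (Clopper-Pearson) 95% interval in replicate 1 ran from 6933 to 7287 CPM, and it did not reach the other libraries. Such intervals and the limits given for counts of 0 leave out all but counting error, and reads copied by PCR are counted as separate.
mmu-miR-196b-5p, its HoxA paralog, held 1464, 2641 and 2723 counts, or 1681, 2626 and 2817 CPM, with a mean of 2375 ± 608 CPM (SD, n = 3) and rank 38. It followed the same order of replicate 1 below the others. The log2 ratio of miR-196a-5p to miR-196b-5p was 2.08, 2.06 and 1.87, with a mean of 2.00 ± 0.12 (SD, n = 3), so that miR-196a-5p was between 3.66-fold and 4.23-fold higher. The ratio was above 0 in 3 of 3 libraries (p = 0.25 in an exact two-sided permutation test that flips signs, which cannot go lower with 3 libraries).

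mmu-miR-10b-5p, from the HoxD cluster, held 1892, 2559 and 1955 counts, or 2172, 2544 and 2023 CPM. Its mean of 2246 ± 268 CPM (SD, n = 3) gave rank 41. The libraries were closer to each other than for any other mature entry of the HOX-embedded miRNAs with counts in every library, the highest exceeding the lowest 1.26-fold. Neighbouring miR-196b-5p was lower than miR-10b-5p in replicate 1 and higher in replicates 2 and 3, and their log2 ratio of 0.05 ± 0.42 (SD, n = 3) was smaller than its spread.
mmu-miR-10a-5p, from the HoxB cluster, held 145, 135 and 370 counts, or 166, 134 and 383 CPM. Its mean was 228 ± 135 CPM (SD, n = 3), rank 138, and replicate 3 stood above the others. The 95% interval of replicate 3, from 345 to 424 CPM, did not overlap those of replicates 1 and 2, which reached up to 195.9 and 159 CPM, so the spread was wider than counting error. Without replicate 3 the mean was 150.3 CPM. The hairpin entry of miR-10a-5p was also highest in replicate 3, at 397, 204 and 618 CPM of the hairpin counts.
The log2 ratio of miR-10a-5p to miR-10b-5p was -3.71, -4.24 and -2.40, with a mean of -3.45 ± 0.95 (SD, n = 3). miR-10b-5p was thus 13.0-fold, 19.0-fold and 5.28-fold higher, in 3 of 3 libraries (the same exact permutation test, p = 0.25). Without replicate 3 the mean was -3.98. From hairpin entries the mean was -2.17 ± 0.78 (SD, n = 3), a smaller difference in the same direction in every library.

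miR-615-3p, from an intron of Hoxc5, held 166, 120 and 69 mature counts, or 191, 119 and 71.4 CPM, with a mean of 127 ± 60.0 CPM (SD, n = 3) and rank 161. Replicate 1 was the highest and replicate 3 the lowest. It was above miR-10a-5p in replicate 1 and below it in replicates 2 and 3, so the order of these neighbours was not the same in every library. miR-196a-1-3p held 36, 62 and 23 mature counts, with a mean of 42.3 ± 18.9 CPM (SD, n = 3). miR-615-5p held 32 counts in replicate 1 and none in the others, where a count of 0, taken throughout to allow up to 3 counts, allows up to 2.98 CPM in replicate 2 and 3.10 CPM in replicate 3, against 36.7 CPM in replicate 1.

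**Figure D2:**
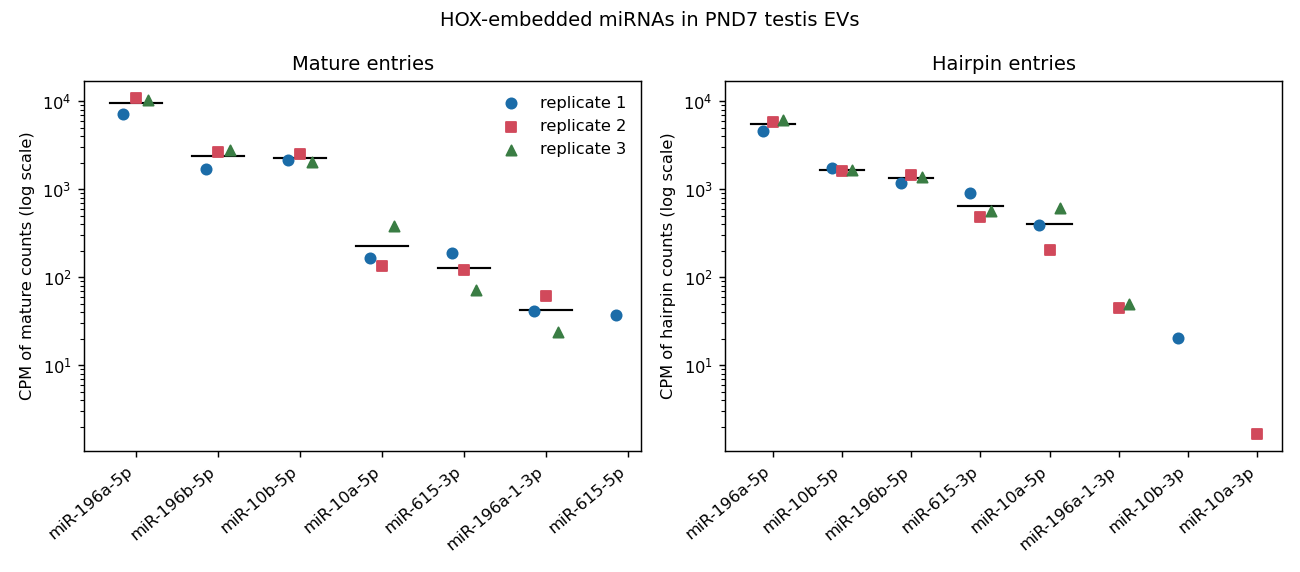
CPM of the mature counts (left) and of the hairpin counts (right) for each HOX-embedded miRNA with a count, on log axes, with a point for each library and a black line at the mean where every library had counts. Entries with 0 counts are not drawn. The mature entry of miR-196a-5p lies between 7108 and 10970 CPM, above all others, and that of miR-10a-5p between 134 and 383 CPM.

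The 7 mature entries together held 9926, 16551 and 15106 counts, which is 1.14%, 1.65% and 1.56% of the mature miRNA counts (mean 1.45% ± 0.271, SD, n = 3). miR-196a-5p made up 65.0% ± 2.31 of these counts, miR-196b-5p 16.2% ± 1.66, miR-10b-5p 15.8% ± 3.08, miR-10a-5p 1.58% ± 0.823 and miR-615-3p 0.951% ± 0.639 (SD, n = 3 each). Summed over paralogs, miR-10 was below miR-196 in 3 of 3 libraries, with a log2 ratio of -1.91, -2.34 and -2.45 and a mean of -2.23 ± 0.29 (SD, n = 3; exact sign-flip permutation test, p = 0.25). miR-196 was thus 3.76-fold to 5.46-fold higher.

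**Figure D3:**
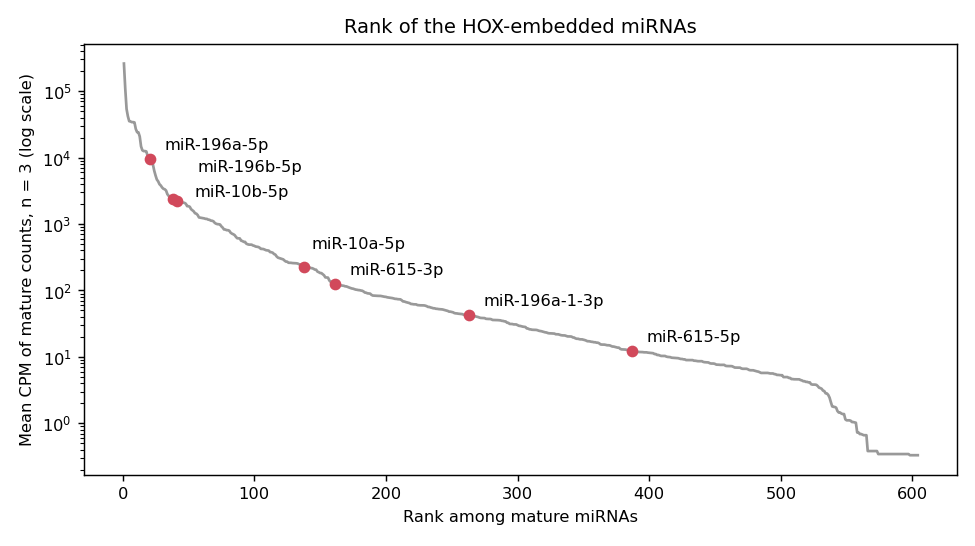
Mean CPM of the mature counts over 3 libraries (log axis) against rank for the 604 mature miRNAs, with the HOX-embedded miRNAs marked in red. miR-196a-5p has rank 21, miR-196b-5p and miR-10b-5p have ranks 38 and 41, and the others lie at rank 138 or lower.

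Of 6 HOX-embedded miRNAs with at least 10 mature counts in every library, the highest CPM was at least 2 times the lowest for 3, against 40.4% of the 272 such miRNAs. These were miR-10a-5p (2.85-fold), miR-615-3p (2.67-fold) and miR-196a-1-3p (2.59-fold), the least abundant of the 6. Over all 272 miRNAs the median was 1.72-fold, and miR-196a-5p at 1.54-fold, miR-196b-5p at 1.68-fold and miR-10b-5p lay below it. Among 5 hairpin entries, only that of miR-10a-5p passed the same threshold, with 3.03-fold, against 43.2% of the hairpin entries with as many counts.

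Arm use split the precursors. Of the 5 names, 4 had more mature 5p than 3p counts in every library, against 51.7% of the 236 names with either arm counted. It was 46.7% of the 137 names with both arms counted, which of the 5 include only miR-196a and miR-615. For miR-10a, miR-10b and miR-196b no mature 3p count was seen. For miR-10b the same limit of 3 counts allows a 3p share of up to 0.159%, 0.117% and 0.153% in replicates 1, 2 and 3, and for miR-10a, with fewer counts, it allows up to 2.22% in replicate 2. For miR-196a, 99.4%, 99.4% and 99.8% of the counts of both arms were on the 5p arm. miR-615 was the exception, with 83.8% of its mature counts on the 3p arm in replicate 1 (95% interval 78.0% to 88.7%) and all of them in replicates 2 and 3. More 3p than 5p in every library was seen for 29.9% of the names with both arms counted and 34.7% of those with either. Among hairpin entries the same 4 names had more 5p and miR-615 more 3p counts in every library, against 50% and 38.9% of 262 names, and the 3p arms of miR-10b and miR-10a had 10 counts in replicate 1 and 1 count in replicate 2, respectively.

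The 3p arms also distinguish the source genes of miR-196a-5p, whose 5p arms are identical. The precursors of both genes are shown with their annotated arms in capitals (RefSeq, GRCm38.p6).
Mir196a-1: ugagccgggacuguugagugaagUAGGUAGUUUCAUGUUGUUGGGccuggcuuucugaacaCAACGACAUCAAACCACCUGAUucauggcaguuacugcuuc
Mir196a-2: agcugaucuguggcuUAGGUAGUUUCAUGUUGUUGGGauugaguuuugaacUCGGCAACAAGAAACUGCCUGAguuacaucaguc
The 3p arm of Mir196a-1, in the HoxB cluster, held 36, 62 and 23 mature counts and 0, 27 and 29 hairpin counts. The 3p arm of Mir196a-2, in the HoxC cluster, had no mature or hairpin count in any library, which allows up to 3.44, 2.98 and 3.10 CPM of the mature counts. The catalogues list miR-196a-5p under mir-196a-1 in every library, but the counts of an identical 5p arm cannot be divided between the genes, and how far each 3p arm is kept was not measured. The 65.0% of the mature counts of the HOX-embedded miRNAs that miR-196a-5p held can thus be given only to HoxB or HoxC together. Of the rest, miR-196b of HoxA held 16.2% ± 1.66, miR-10b of HoxD 15.8% ± 3.08, miR-10a of HoxB 1.58% ± 0.823, and miR-615 of HoxC 1.06% ± 0.822 (SD, n = 3 each). The 3p arm of Mir196a-1 of HoxB held 0.363%, 0.375% and 0.152% in replicates 1, 2 and 3.

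Mature and hairpin entries were balanced differently across the HOX-embedded miRNAs. Mature counts exceeded hairpin counts in every library for miR-196a-5p, miR-196b-5p and miR-10b-5p, which is 3 of the 6 members counted in every library, against 31.9% of 458 miRNAs. miR-196b-5p had 586, 880 and 791 hairpin counts, and 74.6% ± 3.05 (SD, n = 3) of its counts were mature. For miR-196a-5p, with 2292, 3579 and 3586 hairpin counts, the mature share was 74.0% ± 1.33, and for miR-10b-5p, with 863, 977 and 949, it was 69.5% ± 2.61 (SD, n = 3 each).
For miR-10a-5p the mature share was 42.5%, 51.9% and 50.9%, so the paralogs of the miR-10 pair differed in every library. miR-615-3p was counted mainly on the hairpin, with 451, 298 and 324 hairpin counts and a mature share of 26.9%, 28.7% and 17.6%. More hairpin than mature counts in every library was found for 36.7% of the 458 miRNAs. Over the 395 miRNAs with at least 10 mature and hairpin counts in every library, the median mature share was 47.1%. miR-196a-1-3p had few counts and a mature share of 100%, 69.7% and 44.2%. Its exact binomial 95% intervals were, in the same order, 90.3% to 100%, 59.0% to 79.0% and 30.5% to 58.7%. These intervals did not overlap, so the spread was wider than counting error. The source of this spread was not tested.
Among hairpin entries the order differed in part. miR-10b-5p, at 1749, 1596 and 1643 CPM of the hairpin counts in replicates 1, 2 and 3, was above miR-196b-5p, at 1188, 1438 and 1370 CPM, in every library, unlike their mature entries. miR-615-3p, at 654 ± 228 CPM of the hairpin counts (SD, n = 3), came before miR-10a-5p, at 407 ± 207 CPM, but not in replicate 3.

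**Figure D4:**
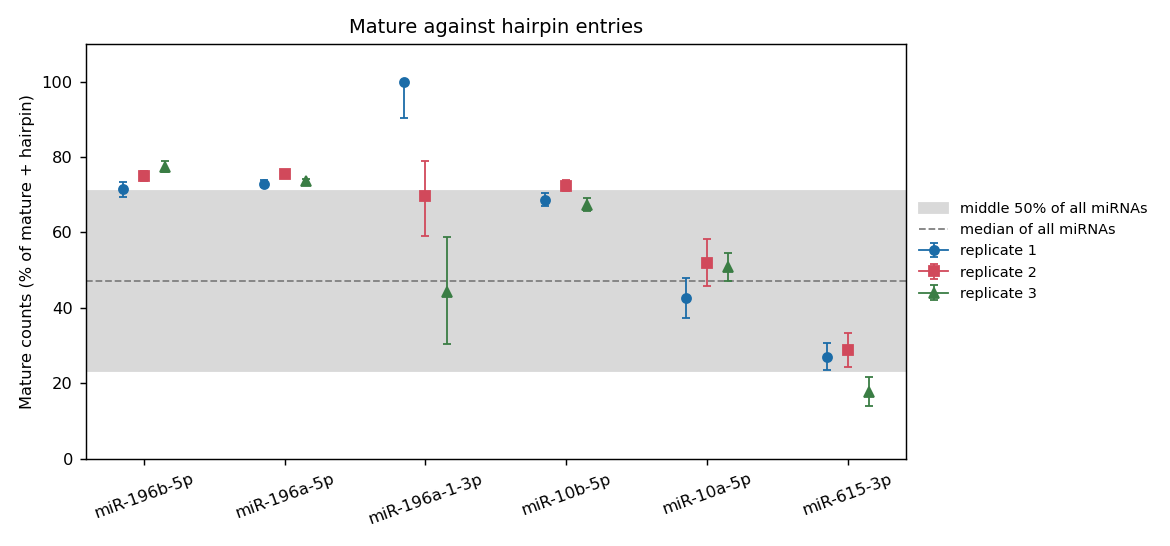
Mature counts as a percentage of mature and hairpin counts for each HOX-embedded miRNA counted in every library, with a point per library and exact binomial 95% intervals. The grey band and the dashed line give the middle 50% and the median (47.1%) of the 395 miRNAs with at least 10 such counts in every library. The points of miR-196a-5p and miR-196b-5p lie above the band in every library, and that of miR-615-3p lies below it in replicate 3.

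Summed within each family, the relatives outside the HOX clusters were far more abundant than the HOX-embedded members, though single relatives were not always higher. miR-99a-5p, miR-99b-5p and miR-100-5p had 34205 ± 6512, 12535 ± 1226 and 3194 ± 527 CPM (SD, n = 3 each), so each of them was above miR-10b-5p in every library. The log2 ratio of miR-10 to these relatives was -4.53, -4.33 and -4.12, with a mean of -4.33 ± 0.20 (SD, n = 3; exact sign-flip permutation test, p = 0.25), and miR-10 was 17.4-fold to 23.1-fold lower. From hairpin entries the mean log2 ratio was -3.30, a smaller difference of 9.82-fold. Reads could also have been split between these relatives, which was not tested.
The 5p arms of let-7 and miR-98, whose shared stretch with miR-196 is shown by the sequences, together exceeded miR-196 by 28.6-fold, 21.0-fold and 25.4-fold. They are 9 arms against the 2 of miR-196, so the fold also depends on how many arms were summed. The log2 ratio of miR-196 to their sum had a mean of -4.63 ± 0.23 (SD, n = 3; exact sign-flip permutation test, p = 0.25). Of these arms, miR-98-5p, at 993 ± 98.6 CPM, was below miR-196a-5p and miR-196b-5p in every library, and let-7e-5p, at 4676 ± 2083 CPM, was below miR-196a-5p. In all, 5 ratios were tested, and their adjusted p-values (Benjamini-Hochberg) were 0.25 each from these exact tests, so none can pass a threshold of 0.05.

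**Figure D5:**
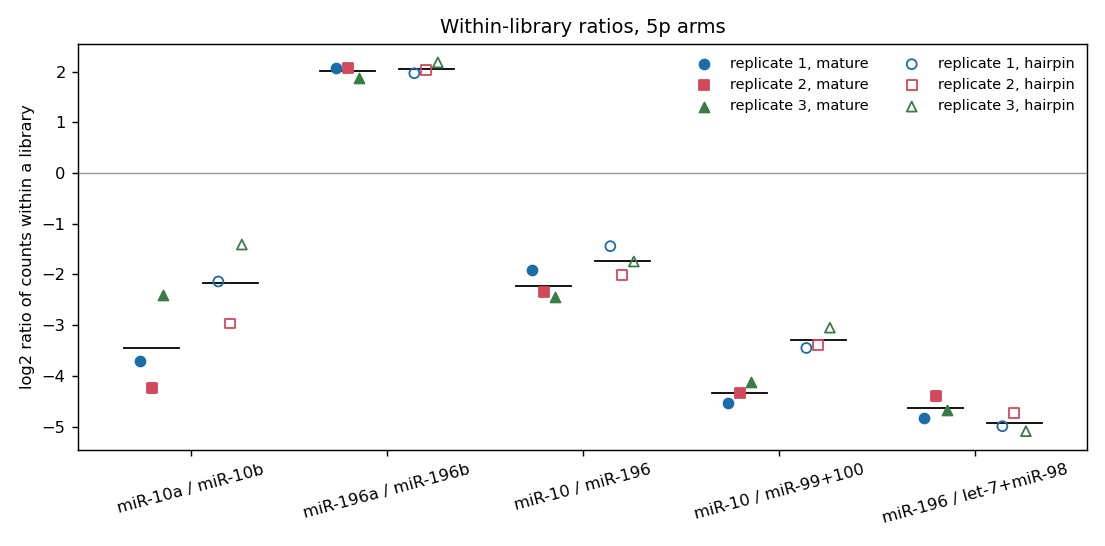
log2 ratios of counts within each library for the 5p arms, from mature entries (filled) and hairpin entries (open), with a black line at the mean of the 3 libraries. Every ratio keeps its side of 0 in all libraries, the ratio of miR-196a to miR-196b lies between 1.87 and 2.18, and that of miR-10a to miR-10b varies most, from -4.24 to -1.41.

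The miRNAs nearest in level were found from the mean absolute difference of log2 CPM over the 3 libraries. Nearest to miR-196a-5p were miR-470-5p and miR-143-3p, with a difference of 0.20 and 0.21. miR-30c-5p (0.06) and miR-154-5p (0.10) were nearest to miR-10b-5p, miR-3470a (0.11) and miR-27a-3p (0.14) to miR-196b-5p, and miR-342-5p (0.34) and miR-467c-5p (0.39) to miR-10a-5p. In rank, miR-196a-5p stood between miR-143-3p and miR-16-5p and was higher than each in 2 of 3 libraries. miR-196b-5p stood between miR-125b-5p and miR-872-5p, miR-10b-5p between miR-30c-5p and miR-3470a, and miR-10a-5p between miR-134-5p and miR-423-5p, and none of these neighbours was on the same side of the member in every library.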

How the data were processed

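Small RNA of 3 EV preparations was sequenced on a BGISEQ-500. The authors discarded reads of low quality, used Bowtie2 and cmsearch to place the rest on the genome and small RNA databases, and assigned each to 1 class, with miRBase first. The submitters' processing notes name mm10. The authors deposited whole-number read counts per small RNA and per class, a percent of clean reads per class, and another column, equal to the count scaled to 1000000 clean reads on rows naming a small RNA, and only the counts were used. Rows naming no small RNA (64.5% of clean reads on average) were left out.

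Counts were scaled to CPM of the mature or hairpin counts in a library, with the mean and SD over libraries. Ratios within libraries were tested with an exact two-sided sign-flip permutation test. Libraries differed by 96.6 to 187 in chi-square per degree of freedom over 272 miRNAs, so none was a repeated deposit, and the scripts' statistics were tested on simulated data. No count model was fitted, since there is 1 group. The members and lists were chosen with earlier results of these data known. All entries matching the rule were named, with their seed relatives, the next miRNAs in rank and the 2 nearest in level. Alternatives changed the entry type, denominator, scaling, count minimum (10), pooling and replicates. Scripts ran in Python 3.11.15 with SciPy 1.17.1, numpy 2.4.6, pandas 2.3.3 and matplotlib 3.10.9.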

Additional observations from a re-analysis of the deposited data

Results flagged for a closer look

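The catalogues also hold Rfam entries of the precursor type, which the comparisons above did not use and which had counts above the limit that a count of 0 allows. The mir-10 family entry had 1170, 1241 and 1288 counts in replicates 1, 2 and 3, and the mir-196 family entry had 429, 685 and 515. In the precursor class the mir-10 family thus exceeded the mir-196 family in every library, the opposite order to the mature entries of miR-10 and miR-196. The files do not say which precursors each family entry covers, so the entries cannot be set against those of miR-10 and miR-196 alone.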

How the results depend on the processing

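No paired analysis was possible because all libraries belong to 1 group. Each of the 5 log2 ratios kept its direction under all 6 alternatives run for it, of which only hairpin entries could have reversed it. Both entry types had the same direction in every library, so leaving out a replicate, pooling or summing the types could not reverse it. Leaving out each replicate in turn gave -3.98 to -3.05 for miR-10a-5p to miR-10b-5p, 1.97 to 2.07 for miR-196a-5p to miR-196b-5p, -2.40 to -2.13 for miR-10 to miR-196, -4.43 to -4.23 for miR-10 to miR-99/100, -4.75 to -4.53 for miR-196 to let-7 and miR-98, and 1.35% to 1.60% for the share of mature counts. With hairpin entries miR-10a-5p to miR-10b-5p was -2.17 and miR-10 to miR-99/100 was -3.30. The share held by the HOX-embedded miRNAs, 1.45% of mature counts, was 0.966% for their hairpin entries among hairpin counts. Their mature counts alone made up 0.832% of the counts of all miRNA entries and 0.0521% of clean reads, which are larger denominators by construction. For single miRNAs, arms and background counts, 105 alternative values stayed within the spread between libraries or 1.5 times the count, and 20 moved further. This split is no measure of robustness. Leaving out a replicate could not shift a mean of these libraries beyond their spread, and larger denominators lower a CPM by construction. The mature 5p shares of miR-10a and miR-10b had no spread, so any change counted as a move. Taking hairpin entries, which was not fixed in this way, moved the CPM of 5 of 6 miRNAs. With either arm counted, an alternative chosen after seeing the data, 122 names had more 5p than 3p counts in every library, against 64 with both arms counted. Depth limits miR-196a-1-3p and miR-615-5p, with at most 62 mature counts in a library.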
